A study of Rattus norvegicus with 8 samples.

Results

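Major histocompatibility complex (MHC) class I molecules carry peptides from inside the cell to its surface, and 7 rat genes that make and load these peptides are described here across sorted testis cells of aged and young animals: B2m, Tap1, Tap2, Tapbp, Psmb8, Psmb9 and Psmb10. They were found by matching the accession of each array probe to the RefSeq symbol, which gave 1 probe of 2 spots for each of the 7 genes, out of 15154 genes named on the array. All 7 probes passed the filter on dim probes, so all 7 were among the 10236 genes tested. The aged group held 4 arrays of CD9-positive testis cells from Sprague-Dawley rats of 21 months, and the young group held 4 arrays of such cells from rats of 4 months. All animals of both groups carried a transgene for green fluorescent protein in germ cells, whose promoter the labels do not name. The cells were taken by fluorescence-activated sorting with an antibody to CD9, a surface tetraspanin of spermatogonia that other cell types carry as well. The labels do not say whether each array came from a separate animal, so a p-value here sets age against the spread among arrays alone, and that spread may be technical.

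In the class I pathway the proteasome cuts proteins into peptides, the TAP transporter pumps them into the endoplasmic reticulum, and tapasin holds the transporter beside empty class I heavy chains until a peptide binds. Beta-2-microglobulin is the light chain without which heavy chains do not reach the surface. Interferon exchanges the constitutive catalytic subunits of the proteasome for inducible ones, which changes the peptides that are cut. The testis is an immune-privileged organ, in which germ cells lie partly behind a barrier of Sertoli cells.

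Of the 7 genes, 5 lie on chromosome 20. Tap2, Psmb8, Tap1 and Psmb9 stand there in this order with no other protein-coding gene between them in the GRCr8 annotation, among class II genes (RT1-Bb and RT1-DOb on one side, RT1-DMb and RT1-DMa on the other). Tapbp lies farther along, beyond the heavy chain genes RT1-A3, RT1-A2 and RT1-A1, while B2m is on chromosome 3 and Psmb10 on chromosome 19. Tap1 and Psmb9 are transcribed away from each other, with 457 bases between their annotated starts. RefSeq windows of build GRCr8, from 250 bases before to 50 bases after each start, were available for all 7 genes. They were searched on both strands for the core of the interferon-stimulated response element, which is GAAA, any 2 bases and GAAA again, and for an NF-kB site, whose letters are the second run of capitals in the Tap1 stretch. The stretches that hold these letters are shown because most promoters of the class I genes hold at least one of these motifs, with the matches in capitals, 5′ to 3′ in the direction of each gene.
B2m, chr3:129549165-129549217, plus strand: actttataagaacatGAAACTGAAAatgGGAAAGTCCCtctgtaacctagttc
Tap1, chr20:4668574-4668679, minus strand: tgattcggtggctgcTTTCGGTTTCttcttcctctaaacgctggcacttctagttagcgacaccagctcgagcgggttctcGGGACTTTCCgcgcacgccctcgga
Tap2, chr20:4652313-4652352, minus strand: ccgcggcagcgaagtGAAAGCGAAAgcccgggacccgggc
Tapbp, chr20:4967873-4967918, minus strand: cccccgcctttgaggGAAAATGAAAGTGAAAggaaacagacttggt
Psmb8, chr20:4657011-4657050, minus strand: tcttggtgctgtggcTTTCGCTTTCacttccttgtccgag
Psmb10, chr19:50743285-50743380, minus strand: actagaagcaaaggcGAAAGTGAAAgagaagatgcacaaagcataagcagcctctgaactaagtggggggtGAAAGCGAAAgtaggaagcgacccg

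The response element core was present in the windows of 6 of the 7 genes, against 3.77% of the 27457 RefSeq windows of this length (1034 windows). The Psmb9 window did not hold these letters. Tapbp had 2 overlapping matches and Psmb10 had 2 separate ones, and in Tap1 and Psmb8 the match was on the opposite strand. The NF-kB letters were found in 2 of the 7 windows, those of B2m (opposite strand) and Tap1, against 0.095% of all windows (26 windows). The cyclic AMP response element TGACGTCA, also searched on both strands, was in none of the 7 windows (1.91% of all windows). These matches describe letters only and are no evidence of binding in these cells.

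Most class I loading genes had a mean signal in aged cells below that in young cells, by amounts that did not pass the test. The difference was below 0 for 6 of the 7 genes, against 36.6% of all genes tested, with a median of −0.29 over the 7 genes and 0.11 over all genes (log2, aged minus young). None of the 7 passed the limma test after Benjamini-Hochberg adjustment over all genes (0 of 7, against 0.655% of all genes, or 67), and 3 had an unadjusted p under 0.05 as lower (13.6% of all genes). In Tap1 and Psmb9 all 4 aged values lay below all 4 young values, which 4.12% of all genes also did, but Tap1 passed the filter on dim probes through the young group alone. Psmb10 was the exception, with a difference above 0.

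**Figure D1:**
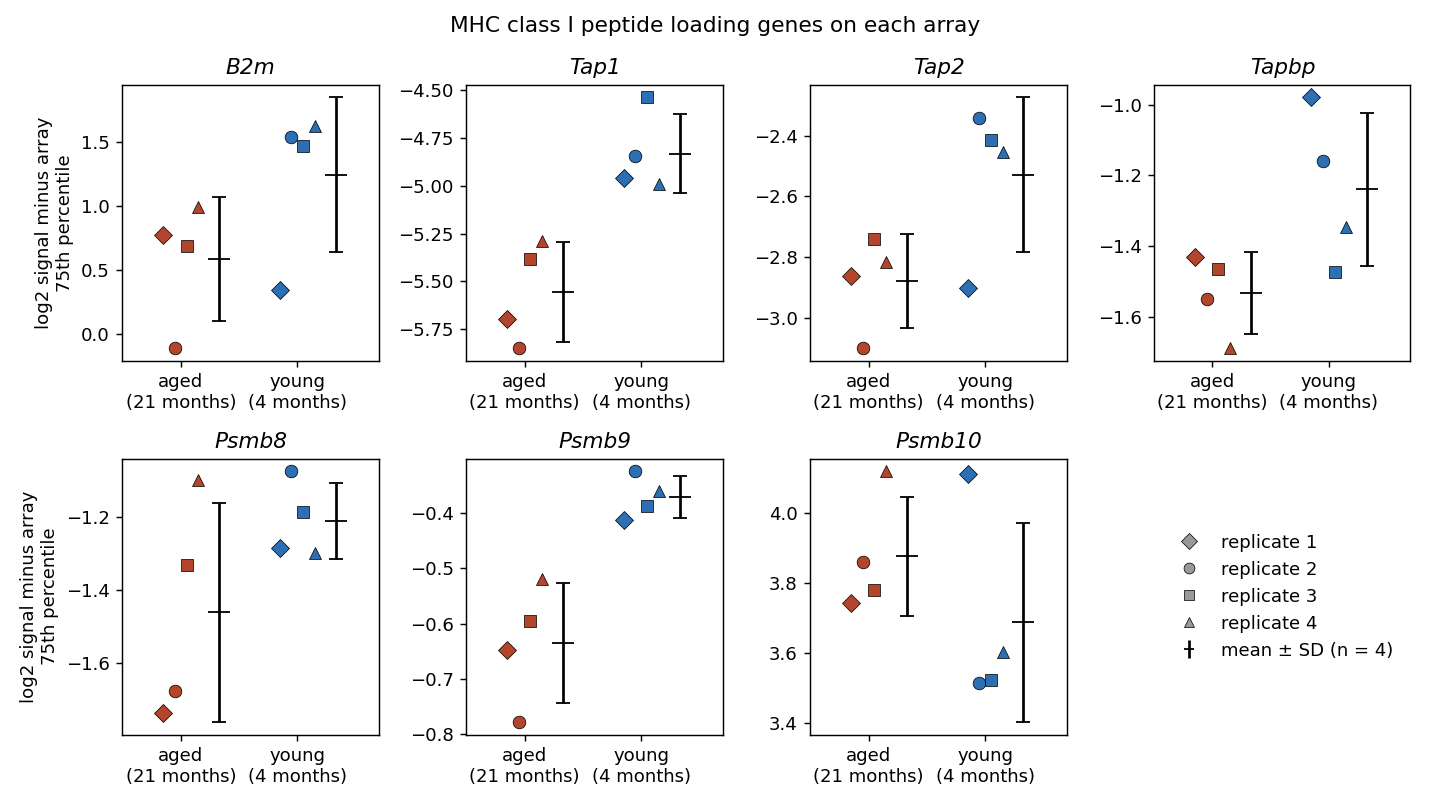
Signal of the 7 class I loading genes on each array (log2 processed signal minus the array's 75th percentile, vertical axis), aged arrays left and young arrays right, with the mean and standard deviation of each group (n = 4). The groups are separate for Tap1 and Psmb9, and young replicate 1 (diamond) lies among or below the aged values for B2m and Tap2.

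Before the single genes, 1 array must be described. Young replicate 1 resembled the aged arrays more than its own group: over all genes tested its median correlation was 0.964 with the other young arrays and 0.986 with the aged arrays, whereas the other 3 young arrays had 0.991 with their own group and 0.965 to 0.979 with the aged arrays. The results on the 7 genes and the calls in each list are therefore given with and without it. Without it 3776 genes were called (36.9% of all genes, 14.6% as lower and 22.3% as higher in aged), against 67 with it, so a call made without it is common. Because it was set apart for its likeness to the aged arrays, leaving it out favours a gap between the groups. Calls made without it are therefore a description and no independent support. The 75th percentile of the signal, on which each array was scaled, was 331 to 524 intensity units on the aged arrays and 326 to 503 on the young arrays, 63.0% to 72.0% of probes were well above background, and no spot was saturated. All arrays shared 1 slide and 1 scan, with aged arrays in row 2 and young arrays in row 1, so slide row and age cannot be told apart. In bulk RNA, fewer cells of a type and less RNA per cell cannot be told apart either. Cd9 itself was well above background on all 8 arrays with a difference of −0.16 ± 0.16 (SE, adjusted p = 0.492). The 4 tested pan germ cell markers were split, with Dazl at 0.52 (adjusted p = 0.0801), Mael at 0.005, Tdrd1 at −0.11 and Ddx4 at −0.21 (adjusted p = 0.448), and without young replicate 1 Dazl passed as higher (0.64, adjusted p = 0.00795).

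B2m, the light chain of every class I molecule, gave log2 signals of 0.77, −0.11, 0.69 and 1.0 on aged arrays 1 to 4, relative to the array's 75th percentile. On young arrays 1 to 4 it gave 0.34, 1.55, 1.47 and 1.62. Young replicates 2 to 4 lay above every aged array, while young replicate 1 lay below 3 of the 4 aged arrays, so the groups overlapped. The means were 0.59 ± 0.48 in aged and 1.25 ± 0.60 in young cells (SD, n = 4 each), a difference of −0.66 ± 0.32 (SE, 95% interval −1.39 to 0.08, adjusted p = 0.197) or a signal ratio of 0.634. Without young replicate 1 the difference was −0.96 ± 0.24 and passed (adjusted p = 0.0202). Without aged replicate 2, the lowest array, it was −0.42 (adjusted p = 0.418).

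Tap1 encodes the first of the subunits of the peptide transporter, a pump driven by ATP. Its log2 signals were −5.70, −5.85, −5.38 and −5.29 on the aged arrays, against −4.96, −4.84, −4.54 and −4.99 on the young arrays. Every aged value was below every young one, replicate 1 of the young group included. The difference of −0.72 ± 0.16 (95% interval −1.09 to −0.36, ratio 0.606) missed the threshold (adjusted p = 0.0561). Its probe was dim, well above background on 1 of 4 aged and on 4 of 4 young arrays, with processed signals of 6.25 to 13.4 intensity units in aged and 10.5 to 21.6 in young cells. The filter kept it through the young arrays alone, so the difference, its interval and the ratio rest on aged values of which 3 of 4 were not well above background. The normexp background correction was run, in every setting that used it, with an offset of 50 intensity units added. With it the Tap1 difference was −0.09 or −0.11 (adjusted p = 0.655 and 0.216 with percentile and quantile scaling). An added offset shrinks the differences of dim probes, so the part of background removal itself cannot be told apart. Tap1 passed without young replicate 1 (−0.76, adjusted p = 0.0136).

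Tap2, the partner subunit of the transporter, gave −2.86, −3.10, −2.74 and −2.82 in aged cells and −2.90, −2.34, −2.41 and −2.45 in young cells. Young replicates 2 to 4 stood above all aged arrays, and young replicate 1 stood below 3 of them. The difference was −0.35 ± 0.15 (95% interval −0.69 to −0.02, adjusted p = 0.146), and without young replicate 1 it was −0.48 ± 0.11 and passed (adjusted p = 0.0141). With normexp correction it was −0.14 or −0.08 with percentile or quantile scaling. The 2 subunits thus differed in where young replicate 1 fell: with the young arrays for Tap1 and with the aged arrays for Tap2.

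Tapbp encodes tapasin, the bridge between the transporter and the heavy chains. Its values were −1.43, −1.55, −1.46 and −1.69 on the aged arrays, and −0.98, −1.16, −1.47 and −1.35 on the young arrays. Here young replicate 1 was the highest of all 8, and young replicate 3 lay within the aged range. The difference was −0.29 ± 0.13 (95% interval −0.59 to 0.004, adjusted p = 0.163). Without young replicate 1 it was −0.21 ± 0.11 (adjusted p = 0.171).

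The inducible proteasome subunits differed among themselves. Psmb9, which takes the place of Psmb6 in the immunoproteasome, gave −0.65, −0.78, −0.60 and −0.52 in aged cells and −0.41, −0.32, −0.39 and −0.36 in young cells. The groups did not overlap, and the young arrays lay close together (SD 0.038, against 0.11 in aged cells). Its difference was −0.26 ± 0.10 (95% interval −0.49 to −0.04, ratio 0.833, adjusted p = 0.115), and −0.28 ± 0.09 without young replicate 1 (adjusted p = 0.0476).

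Psmb8, which replaces Psmb5, gave −1.74, −1.68, −1.33 and −1.10 in aged cells and −1.29, −1.08, −1.19 and −1.30 in young cells. Aged replicates 1 to 3 were below all young arrays, whereas aged replicate 4 was above 3 of them. The difference was −0.25 ± 0.16 (95% interval −0.60 to 0.10, adjusted p = 0.289), and −0.27 without young replicate 1 (adjusted p = 0.218). Leaving out aged replicate 1 gave −0.16 (adjusted p = 0.508).

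Psmb10, which replaces Psmb7, gave 3.74, 3.86, 3.78 and 4.12 in aged cells and 4.11, 3.51, 3.52 and 3.60 in young cells. Young replicates 2 to 4 lay below every aged array, while young replicate 1 lay at the level of the highest aged array. The difference was 0.19 ± 0.16 (95% interval −0.17 to 0.55, adjusted p = 0.430). It was 0.33 ± 0.11 without young replicate 1 (adjusted p = 0.0510), 0.04 with quantile normalization and −0.27 with scaling to spike-in RNA. Without young replicate 1, 4 of the 7 genes passed as lower (B2m, Tap1, Tap2 and Psmb9), against 14.6% of all genes. Tap1 among these had passed the filter on dim probes through the young arrays alone. With any other single array left out 0 of the 7 genes passed, and 0 or 1 of all genes.

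**Figure D2:**
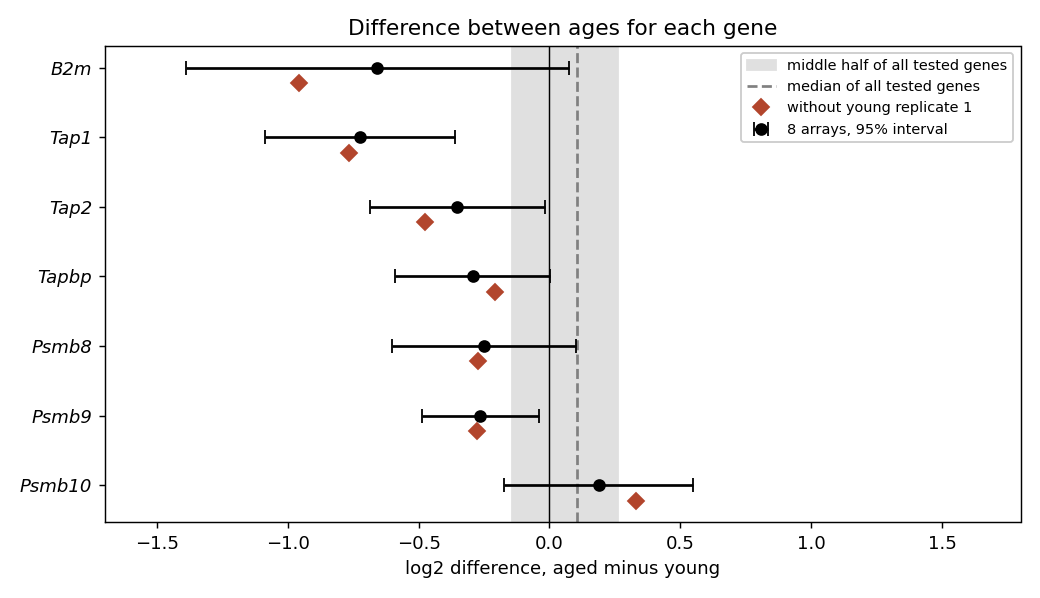
Difference between aged and young cells for each gene (log2, horizontal axis), with the 95% interval from 8 arrays (black) and the estimate without young replicate 1 (diamonds); the band and dashed line give the range between the quartiles and the median (0.11) of all 10236 genes. The difference is below 0 for all but Psmb10, and leaving out young replicate 1 moves B2m and Tap2 farthest among the 6.

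Scaling set where 0 lies for every gene at once. The median of all genes was 0.11 with percentile scaling, 0.26 with median scaling, 0.07 with no scaling and −0.35 with scaling to spike-in RNA. Relative to it, the median of the class I loading genes stood at −0.40 under each of these 4 settings and at −0.32 with quantile normalization, where all 7 genes lay below the median gene. The 4 settings differ only by 1 value per array, the same for all genes, so their agreement was fixed in advance. With normexp correction the median of the 7 genes relative to the median gene was −0.22 or −0.19. With adjusted p under 0.05 as a call, 1 of the 7 genes passed under median scaling (Tap1, against 13% of all genes), 3 under spike-in scaling (Tap1, Tapbp and Psmb9, against 10.4%), 5 with array weights (Psmb10 as higher, against 44.6%) and 3 without both young replicate 1 and aged replicate 2 (against 27.4%). The last of these settings was chosen after seeing the data. Psmb10 stood 0.08 above the median gene under percentile scaling and 0.06 below it under quantile normalization.

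**Figure D3:**
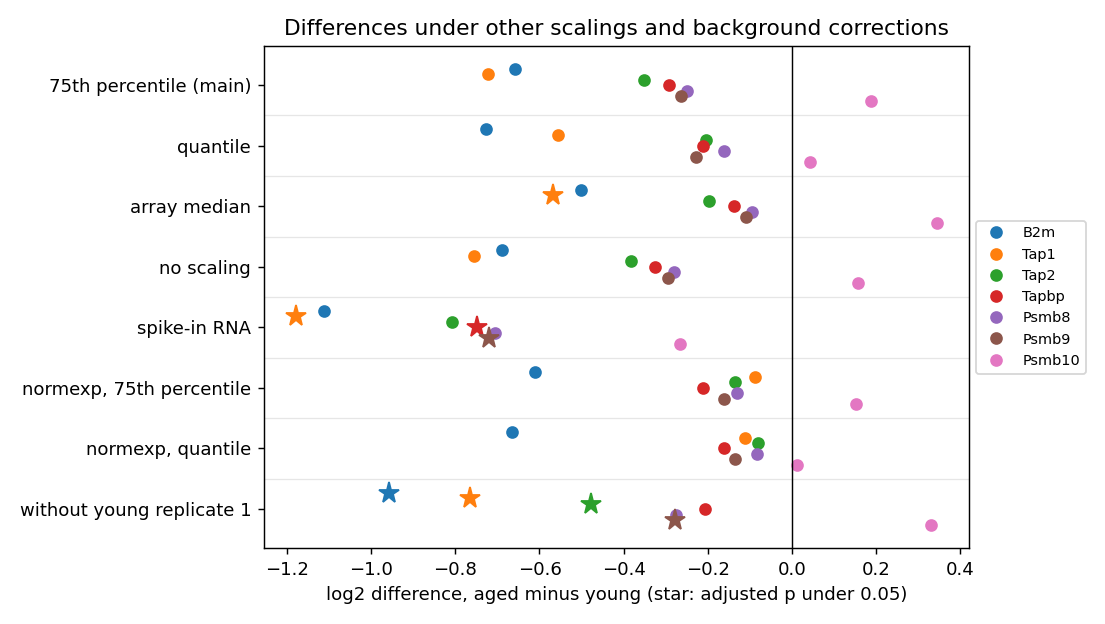
Difference of each gene (log2, aged minus young, horizontal axis) under the 75th percentile scaling, 6 other scalings and background corrections, and without young replicate 1, with stars where the adjusted p was under 0.05. Scaling to spike-in RNA moves all 7 genes down together, and with normexp Tap1 stands at −0.09 or −0.11 (−0.72 without it) and B2m at −0.61 or −0.66.

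The constitutive subunits that the inducible ones replace had differences above 0, as most genes did (36.6% of all genes were below 0, median 0.11). Psmb5 had a difference of 0.24 ± 0.16 (adjusted p = 0.311), Psmb6 of 0.29 ± 0.15 (adjusted p = 0.213) and Psmb7 of 0.10 ± 0.15 (adjusted p = 0.652). With spike-in scaling, which moved all genes, they stood at −0.22, −0.17 and −0.35, and Psmb7 was also below 0 with quantile normalization (−0.03). Without young replicate 1 Psmb5 (0.38, adjusted p = 0.0268) and Psmb6 (0.40, adjusted p = 0.0408) passed as higher, and Psmb7 was at 0.20 (adjusted p = 0.284). A log2 ratio of both subunits within an array does not depend on scaling, and these ratios were examined after the values had been seen, with no test. Psmb9 over Psmb6, centred on its mean over 8 arrays, was −0.10, −0.29, −0.31 and −0.40 in aged cells and −0.09, 0.52, 0.28 and 0.41 in young cells. The groups only just separated, since young replicate 1 lay beside aged replicate 1. Psmb8 over Psmb5 was −0.34, −0.44, −0.14 and −0.05 in aged cells and −0.25, 0.59, 0.39 and 0.25 in young cells, with young replicate 1 inside the aged range. Psmb10 over Psmb7 was 0.14, −0.02, −0.33 and 0.38 in aged cells and 0.11, −0.005, −0.28 and 0.02 in young cells, with groups that overlapped.

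The rest of the proteasome mostly had values above 0, as did most genes tested (36.6% of all genes were below 0, median 0.11). Of 14 constitutive core subunits, all tested, 12 were above 0 and 0 were called (median 0.19), but without young replicate 1 7 of the 14 passed as higher (22.3% of all genes did). The smallest p were those of Psma5 (0.31 ± 0.13, adjusted p = 0.153) and Psma1 (0.20 ± 0.10, adjusted p = 0.205), which both passed without young replicate 1 (0.43 and 0.25, adjusted p = 0.00901 and 0.0459), and those below 0, named after their values were seen, were Psma6 (−0.10) and Psma7 (−0.05). Psma8, a core subunit of meiotic germ cells, had 1.50, −0.70, 1.30 and 0.77 in aged cells and 0.65, −0.62, −0.58 and −0.03 in young cells, with aged replicate 2 as the lowest of all (0.87 ± 0.48, adjusted p = 0.238). Without aged replicate 2 the Psma8 difference was 1.34 (adjusted p = 0.147), and without young replicate 1 it was 1.13 (adjusted p = 0.105). Psma8 was called with array weights (1.20, adjusted p = 0.0305) and without both arrays (1.60, adjusted p = 0.00275). The setting without both was chosen after seeing the data. It drops the lowest aged and the highest young value of Psma8, so it is no independent support. With any single array left out Psma8 was not called. All 7 tested activator and assembly genes were above 0 and 0 were called. The assembly chaperones Psmg2 (0.59 ± 0.13, adjusted p = 0.0561) and Psmg4 (0.44 ± 0.13, adjusted p = 0.0786) led these, and 3 of the 7, Psmg2 (0.68, adjusted p = 0.00532) and Psmg4 (0.50, adjusted p = 0.0153) among them, passed without young replicate 1. Under spike-in scaling Psma5, Psma1 and Psmg4 stood at −0.15, −0.26 and −0.02. The interferon-inducible activator subunits Psme1 and Psme2, chosen after their values were seen, stood at 0.04 and 0.17.

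Partners in the endoplasmic reticulum also had values above 0, in 6 of 6 tested genes, with 0 called (median 0.21). Of all genes 36.6% were below 0, with a median of 0.11. Calreticulin, Calr, which holds class I heavy chains in the loading complex, had 0.32 ± 0.11 (adjusted p = 0.0948) and the chaperone Hspa5 0.36 ± 0.13 (adjusted p = 0.114). In both, every aged value was above every young one, as in 10.2% of all genes. Of the 6, 2 passed as higher without young replicate 1, Calr (0.37, adjusted p = 0.0231) among them, while Hspa5 did not (0.39, adjusted p = 0.0524). Under spike-in scaling both stood below 0 (−0.13 and −0.10).

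The class I heavy chains, the proteins that the peptides are loaded onto, mostly had differences below 0, like B2m. Probes were matched to 32 heavy chain and related genes, 20 of which passed the filter on dim probes. Of these 20, 19 had a difference below 0 (36.6% of all genes) and 0 were called, with a median of −0.43. In 3 of them all aged values lay below all young values (4.12% of all genes). Fcgrt, the lowest of the 20 (−1.01), passed the filter on dim probes through the young arrays alone. Heavy chain genes are close copies of each other, and 1 transcript may bind several of these probes, so the 20 are not separate measurements. RT1-CE15 gave −2.63, −2.48, −2.48 and −2.63 in aged cells and −2.20, −1.95, −2.03 and −2.19 in young cells (difference −0.46 ± 0.11, adjusted p = 0.0561). RT1-CE3 gave −3.23, −3.47, −3.33 and −3.29 in aged cells and −2.79, −2.69, −2.88 and −3.04 in young cells (−0.48 ± 0.11, adjusted p = 0.0562). In both genes, named for the smallest p of the list, young replicate 1 lay with the young arrays. Over all 20, each gene centred on its 8 arrays, the mean of young replicate 1 was −0.11. This was within the aged range of −0.46 to −0.09, and young replicates 2 to 4 had 0.22 or more. With normexp correction RT1-CE15 was at −0.27 or −0.21 and RT1-CE3 at −0.19 or −0.15 (percentile or quantile scaling). Neither was called there. The gene above 0, named after its value was seen, was RT1-N2 (0.08 ± 0.16, adjusted p = 0.759). Without young replicate 1, 14 of the 20 passed as lower, against 14.6% of all genes.

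The tested genes upstream of the pathway had a median near 0, against 0.11 over all genes, of which 36.6% were below 0. Of 20 regulators on the list, Nlrc5, Nfkb1 and Ifnar2 had no matched probe. Irf2, Irf8 and Ciita had a probe but were not among the genes tested, so nothing is said of these regulators. Of 14 regulators tested, 11 were above 0, up to 0.33 for Irf9, and 0 were called (median 0.03). Among those below 0, named after their values were seen, were the interferon receptor subunit Ifnar1 (−0.17) and the transcription factor Irf1 (−0.03). Rfxap, a subunit of the RFX complex that binds class I and class II promoters, stood at 0.30 ± 0.11 (adjusted p = 0.117), or −0.15 under spike-in scaling, and passed without young replicate 1 (0.36, adjusted p = 0.0289), when 1 of the 14 regulators was called higher and 1 lower. Of 29 interferon-induced genes with a probe, 15 were tested, 11 with values below 0 and 4 above, and 0 were called (median −0.30). Irgm (−0.42) passed the filter on dim probes through the young arrays alone, and Usp18 (−0.28) through the aged arrays alone. The RNA sensor Ifih1 (−0.48 ± 0.14, adjusted p = 0.0796) and the GTPase Gbp2 (−0.50 ± 0.17, adjusted p = 0.102) led the list. With normexp correction Ifih1 was at −0.11 or −0.10 and Gbp2 at −0.40 or −0.36 (percentile or quantile scaling), and neither was called. The offset added with normexp also shrinks differences of dim probes, so the part of background removal in the Ifih1 value cannot be told apart. Of the 15, 5 passed as lower without young replicate 1, among them Ifih1 (−0.38, adjusted p = 0.0402) and Gbp2 (−0.60, adjusted p = 0.0247), and 2 as higher. The 4 above 0, named after their values were seen, were Mx2 (0.39), Igtp (0.26), Bst2 (0.10) and Mx1 (0.06). Over the 235 other tested genes whose promoter window holds the response element core, the median difference was 0.07 with 42.1% below 0, against 0.11 and 35.4% over 8203 tested genes whose window lacks it.

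The genes most like the class I loading genes over the 8 arrays were sought among 10227 genes, by their Pearson correlation with the mean of the 7 (a description over arrays that also share age and cell makeup). The 10 highest were Cmpk2, Cln8, Adgre1, RT1-CE2, Lgals3bp, Gbp2, Hpse, Dgkg, Gpx1 and Nfatc4, with r from 0.956 to 0.981. Among them Cmpk2 is a nucleotide kinase induced by interferon, Adgre1 is the macrophage antigen F4/80, and RT1-CE2 is a class I heavy chain. Dgkg was well above background on 3 of 4 aged arrays and passed the filter on dim probes through the young arrays alone. Its difference was −0.95, or −0.22 and −0.21 with normexp correction and percentile or quantile scaling. Adgre1 gave −5.25, −5.86, −4.69 and −4.00 in aged cells and −4.06, −2.71, −2.61 and −2.53 in young cells, with young replicate 1 just below the highest aged array (−1.97 ± 0.44, adjusted p = 0.0561), and was well above background on 3 of 4 aged arrays. Adgre1 was at −2.33 without young replicate 1 (adjusted p = 0.0063), and at −0.54 or −0.52 with normexp correction (adjusted p = 0.0354 and 0.0672 with percentile and quantile scaling). The 3 lowest were Trmt10b, Serinc1 and Tecpr1 (r from −0.978 to −0.973). Within the 7, the correlation of a gene with the mean of the other 6 was 0.979 for Psmb9, 0.884 for Tap1, 0.843 for Tap2, 0.796 for Psmb8, 0.669 for B2m, 0.274 for Tapbp and −0.524 for Psmb10.

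Markers of some other cell types that the sort could hold also had differences below 0, beside the class I genes. All 3 tested Sertoli markers were above 0 (median 0.59), and 1 was called higher with or without young replicate 1. Of 7 tested endothelial markers 4 were below 0 (median −0.11), with 0 called, or 3 as lower without young replicate 1. Of 5 tested Leydig markers 3 were below 0 (median −0.10), with 0 called either way. Of 13 tested spermatogonia markers 10 were below 0 (median −0.16), with 0 called, or 1 as lower and 1 as higher without young replicate 1. Id4 (−0.52), below 0, passed the filter on dim probes through the young arrays alone. All 15 tested macrophage and myeloid markers of 18 on the list had values below 0 (median −0.72), and 0 were called, or 5 as lower without young replicate 1. The mean of this list, each gene centred on its 8 arrays, was −0.33, −1.35, −0.31 and 0.48 on the aged arrays and −0.48, 1.01, 0.51 and 0.49 on the young arrays. The mean of the 7 class I loading genes was −0.20, −0.40, −0.09 and 0.02 on the aged arrays and 0.05, 0.25, 0.20 and 0.17 on the young arrays. Both were lowest in aged replicate 2 and highest in young replicate 2, and they parted in aged replicate 4, which had a macrophage mean near those of young replicates 3 and 4 and a class I mean below all young arrays. They parted in young replicate 1 too, where the macrophage mean lay below 3 of 4 aged arrays and the class I mean above all of them. The macrophage markers Ptprc, Itgam and Mrc1 did not pass the filter on dim probes. Adgre1, Cd14, Cd53 and Cd163 passed it through the young arrays alone, which favours values below 0. All 10 tested stromal markers were below 0 (median −1.37), with list means between −1.38 and −0.29 on the aged arrays, and of −0.65 in young replicate 1 against 1.07 or more in young replicates 2 to 4, and 10 of 10 passed as lower without young replicate 1. Among them Col3a1 passed the filter on dim probes through the young arrays alone. Of 8 tested lymphocyte markers 3 were below 0 (median 0.01), with list means of −0.09 to 0.13 on aged and −0.06 to 0.06 on young arrays, and 1 passed as lower without young replicate 1. Zap70 and Cd4, both below 0, passed the filter on dim probes through the young arrays alone. Of the 6 tested class II genes and Cd74, 5 were below 0 and 0 were called (median −0.68), with Cd74 at −0.73, −1.38, −0.52 and 0.60 in aged cells and −1.10, 1.21, 0.90 and 0.45 in young cells. Of the 6, 4 passed as lower without young replicate 1, Cd74 among them (−1.36, adjusted p = 0.0404). Spermatocyte markers ran the other way, with 12 of 12 above 0 and 7 called higher, or 11 without young replicate 1. Spermatid markers had differences below 0 in 15 of 15 genes (median −1.02), with 0 called, or 15 as lower without young replicate 1, and list means of −1.18 to −0.15 on the aged arrays, −0.54 on young replicate 1 and 0.60 or more on the other young arrays. Among the spermatid markers Acrv1 passed the filter on dim probes through the young arrays alone. The part of these cell types in the class I values was not tested.

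**Figure D4:**
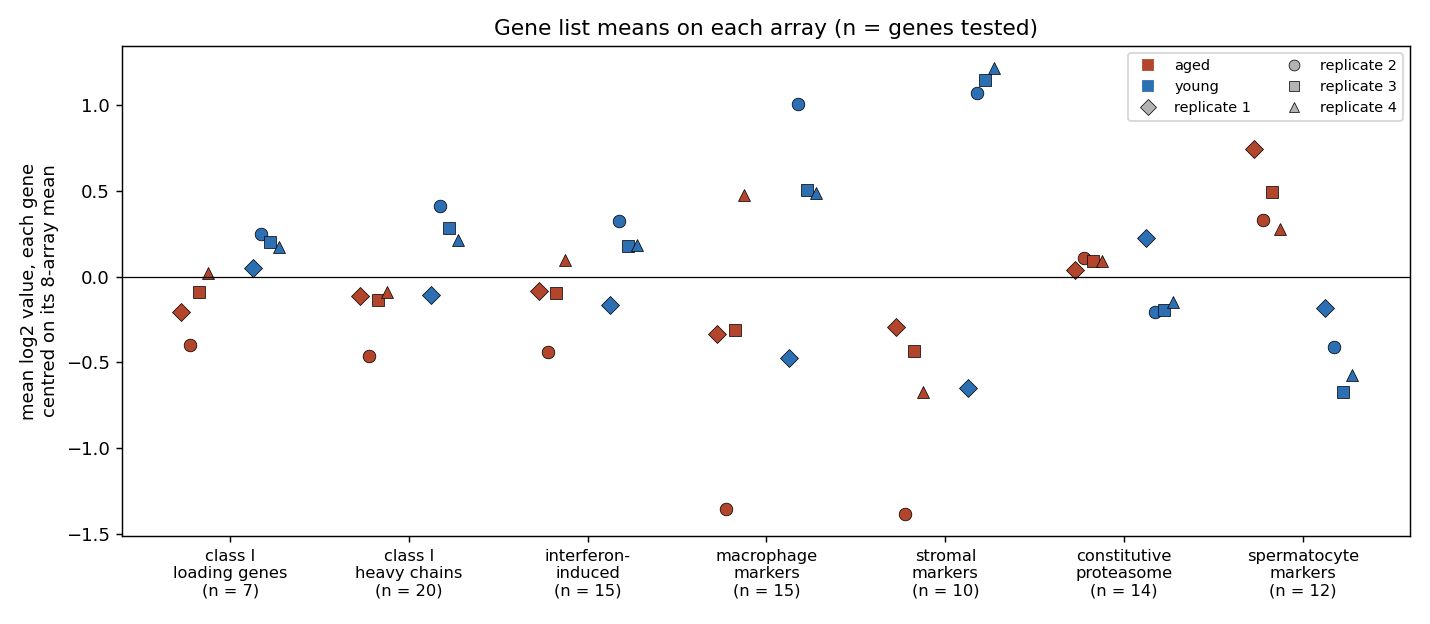
Mean of each gene list on each array (log2, each gene centred on its 8-array mean, vertical axis), aged arrays left and young arrays right within each list. Class I loading genes, heavy chains, macrophage markers and stromal markers are lowest in aged replicate 2, and young replicate 1 (blue diamond) lies with the aged arrays for heavy chains, macrophage and stromal markers.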

How the data were processed

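Scanner output of 8 one-colour arrays was used, from RNA amplified linearly and labelled with Cy3 (18 ng per sample), per the labels' protocols. Per the file headers, the deposited processed signal is an intensity from Agilent Feature Extraction 10.7.3.1 (12.5 per the submitters' processing notes) with background and spatial trend subtracted, no scaling between arrays, and probes designed on rn4. The deposited flags are other values, 0 or 1, per the file headers. The authors' deposited series table holds log2 values centred per probe, with its scaling not given in the sources used here, and served as an alternative.

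Control and outlier spots were left out, spots of a probe were averaged as log2, and the 75th percentile of non-control probes was subtracted from each array. Of 30367 probes 17998 were named through RefSeq accessions (GRCr8). The filter kept the 11950 probes with 0.5 or more of their spots flagged as well above background, in each of the 4 arrays of an age, and the brightest probe stood for a gene. Ages were compared with limma 3.58.1 in R 4.3.3 (lmFit and eBayes, two-sided, 9.15 degrees of freedom) on all 10236 genes, with Benjamini-Hochberg adjusted p under 0.05 as a call. All adjusted p-values come from this fit or its alternatives, and the fit was tested on simulated data.

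The members and lists were chosen with earlier results of these data known. Besides the 7 genes and Psmb5, Psmb6 and Psmb7, the rule named the called genes or the 2 smallest p of each pathway list, and the 10 most and 3 least similar genes. Gene levels of different probes were not compared. The number of arrays limits the precision. One gene of the lists is not reported here.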

Additional observations from a re-analysis of the deposited data

Results flagged for a closer look

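In groups of 4 arrays, a value was singled out where its gap to the nearest array was a larger part of the group's range than Dixon's critical value for 4, which chance exceeds in about 5% of groups. It was found in 8 of 72 groups examined over the genes named. Young replicate 1 was the array set apart in 6 of them: it was low for B2m (0.879 of the range, 0.34 against 1.47 to 1.62 on the other young arrays), Cmpk2 (0.894, −3.19 against −2.98 to −2.95), Adgre1 (0.881, −4.06 against −2.71 to −2.53) and Dgkg (0.861, −4.45 against −3.53 to −3.38), and high for Psmb10 (0.854, 4.11 against 3.51 to 3.60) and Tecpr1 (0.836, 4.77 against 4.52 to 4.56). In aged cells, Psma5 was low in replicate 3 (0.92, 3.44 against 3.55 to 3.56) and Psma1 in replicate 1 (0.933, 2.97 against 3.09 on the others).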

How the results depend on the processing

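The differences of B2m, Tap1, Tap2, Tapbp, Psmb8 and Psmb9 stayed below 0 under all alternatives in which each gene was tested, 25 for 5 of them and 24 for Tap1. Several of these could not change the estimates: other filters on dim probes, averaging a gene's probes, adding unnamed probes, an intensity trend, robust variances and the block. Those settings are no test of the sign. Psmb10 reversed with spike-in scaling (−0.27), as did Psmb5 (−0.22), Psmb6 (−0.17), Psmb7 (−0.35), Trmt10b (−0.058), Serinc1 (−0.14), Calr (−0.13), Hspa5 (−0.10), Psma5 (−0.15), Psma1 (−0.26), Psmg4 (−0.020), Rfxap (−0.15) and the median of all genes (−0.35). Psmb7 also reversed with quantile normalization (−0.033) and with normexp and quantile normalization (−0.042), where Psmb5 did too (−0.024). The median of the 7 genes was −0.75 with spike-in scaling, and −0.37 to −0.27 with any 1 array left out. Of the 7 genes 1 was called with median scaling, 3 with spike-in scaling, 5 with array weights, 3 without young replicate 1 and aged replicate 2 (chosen after seeing the data), and 0 to 4 when single arrays were left out, against 13, 10.4, 44.6, 27.4 and at most 36.9% of all genes. Genes called in all were 1330 with median scaling, 1067 with spike-in scaling, 633 and 259 with normexp and percentile or quantile scaling, 427 with an intensity trend, 4564 with array weights, 2804 without young replicate 1 and aged replicate 2, and 0 to 3776 when single arrays were left out. Limma called 0 genes without filtering dim probes, with unnamed probes added, or without scaling. At an unadjusted p under 0.05 these had 3339, 4929 and 1389 genes. The causes were not tested. With the replicate number as a block limma called 0 genes, and 3231 had an unadjusted p under 0.05. None of the 7 was called. The numbers did not pair the arrays: deviations of same-numbered arrays correlated at −0.26, −0.12, 0.44 and 0.35.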
